A study of Mus musculus with 36 samples.

Results

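The genes described here are 35 genes of glycolysis and of the response to the transcription factor HIF-1, followed in mouse bone marrow-derived macrophages (BMDMs) given bacterial lipopolysaccharide (LPS). They were taken by name from a list: 18 glycolytic enzymes, 3 carriers for glucose and lactate, 2 PFKFB enzymes that set the level of the phosphofructokinase activator fructose 2,6-bisphosphate, the HIF-1 subunit Hif1a, 3 HIF prolyl hydroxylases and 8 other HIF-1 target genes. All 35 were found once among the 36528 genes of the deposited table, and all 35 were among the 15685 genes that passed the filter on low counts. Macrophages were grown from 3 Cop1-floxed mice and 3 WT mice, and every mouse of both genotypes carried the Rosa26-CreERT2 transgene, which makes a tamoxifen-regulated Cre from a ubiquitously active locus. At day 7 of differentiation the cells were left untreated (T0) or given 100 ng/ml LPS, and polyA RNA was sequenced at T0, T2.5, T4, T6, T9 and T13. The labels give no unit for these times and do not say how Cre was switched on. There were 36 libraries in 12 groups of 3, with 1 library of each mouse in each of its 6 groups.

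Cop1, the targeted gene, encodes a ubiquitin ligase and appears in the table under its older symbol Rfwd2. Its level was 0.993 to 1.64 RPKM in the 18 libraries of Cop1-floxed cells, against 1.83 to 2.89 RPKM in the 18 libraries of WT cells, with no overlap. RPKM is the deposited count per kilobase of gene model, scaled to a library size that the authors adjusted by size factors, so that levels can be compared between genes. Cop1 was lower in Cop1-floxed cells at each of the 6 times, with log2 fold changes over T0, T2.5, T4, T6, T9 and T13 of -0.70, -1.21, -1.13, -0.77, -1.06 and -0.83, and edgeR adjusted p-values of at most 0.00014. The T0 call was lost, with an adjusted p of 0.0653, when only the T0 libraries were fitted. The transcript was reduced and not absent.

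Library totals ran between 24069541 and 40298009 counts, with a median of 34549113. The summed level of 11 macrophage markers was 13600 to 25800 RPKM, that of 8 lymphocyte markers 0.0826 to 1.12 RPKM, of 8 dendritic cell markers 3.24 to 56.1 RPKM, of 12 neutrophil and granulocyte precursor markers 86.1 to 266 RPKM, and of 8 erythroid and platelet markers 53.9 to 237 RPKM. The 14 stromal and endothelial markers summed to 32.7 to 85.8 RPKM in Cop1-floxed libraries, against 73.1 to 288 RPKM in WT libraries, and no marker of any list was at 0 in all libraries. Of the macrophage sum, Lyz2 alone made up 6703 to 17630 RPKM. In these bulk libraries fewer cells of a type and less RNA per cell cannot be told apart. A pair of libraries stood apart: Cop1-floxed mouse 2 at T9, with 15045 genes detected against 17622 to 19693 in the others, and WT mouse 2 at T0, in which several of the 35 genes had values far from those of its replicates. The libraries of WT mouse 2 also held Xist at 1.37 to 5.2 RPKM, against 0 to 0.0485 RPKM in those of the other 5 mice, together with Y-linked Ddx3y at 2.47 to 5.82 RPKM.

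Glycolysis splits glucose into pyruvate in the cytosol, and lactate dehydrogenase turns pyruvate into lactate, which leaves the cell through monocarboxylate carriers. HIF-1 is a dimer of Hif1a and Arnt that binds a short core, RCGTG, in regulatory DNA. In the presence of oxygen the Egln enzymes hydroxylate Hif1a protein, which is then marked for degradation by Vhl, so that Hif1a is controlled at the protein level as well as by its transcript. Macrophages given LPS are known to raise glucose uptake and lactate output and to stabilise Hif1a protein, and many glycolytic genes are HIF-1 targets.

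Promoters are printed for 7 genes: the 5 with the largest increases between T9 and T13 (Slc16a3, Pfkl, Egln3, Bnip3, Tpi1) and 2 that peaked early (Adm, Hk2), so that the HIF-1 core can be read beside their different courses. Each line gives the 250 bases before the annotated start, 5′ to 3′ in the direction of transcription, from RefSeq on GRCm38.p6. Capitals mark the cores ACGTG and GCGTG and, where the core lies on the opposite strand, their reverse complements CACGT and CACGC.
Slc16a3 promoter, chr11:120948817-120949066, plus strand: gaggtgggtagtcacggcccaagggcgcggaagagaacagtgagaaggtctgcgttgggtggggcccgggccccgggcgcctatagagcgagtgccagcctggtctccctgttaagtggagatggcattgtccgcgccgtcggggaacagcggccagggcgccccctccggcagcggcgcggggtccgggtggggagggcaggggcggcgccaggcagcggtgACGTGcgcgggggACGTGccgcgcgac
Pfkl promoter, chr10:78009808-78010057, minus strand: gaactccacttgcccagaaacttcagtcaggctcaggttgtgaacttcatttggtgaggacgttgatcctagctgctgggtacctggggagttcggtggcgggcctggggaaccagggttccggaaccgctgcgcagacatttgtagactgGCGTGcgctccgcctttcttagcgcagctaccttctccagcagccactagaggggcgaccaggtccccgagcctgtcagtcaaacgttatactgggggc
Egln3 promoter, chr12:54203875-54204124, minus strand: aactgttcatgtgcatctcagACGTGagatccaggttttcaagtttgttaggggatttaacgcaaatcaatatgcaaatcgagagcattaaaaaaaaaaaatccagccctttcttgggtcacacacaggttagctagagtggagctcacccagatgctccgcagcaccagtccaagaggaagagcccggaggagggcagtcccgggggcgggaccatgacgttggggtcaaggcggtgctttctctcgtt
Bnip3 promoter, chr7:138909507-138909756, minus strand: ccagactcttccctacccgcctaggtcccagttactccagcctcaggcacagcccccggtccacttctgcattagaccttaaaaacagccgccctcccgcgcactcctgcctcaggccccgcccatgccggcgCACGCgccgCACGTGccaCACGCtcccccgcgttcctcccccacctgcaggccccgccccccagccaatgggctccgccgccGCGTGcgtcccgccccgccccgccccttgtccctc
Tpi1 promoter, chr6:124814159-124814408, minus strand: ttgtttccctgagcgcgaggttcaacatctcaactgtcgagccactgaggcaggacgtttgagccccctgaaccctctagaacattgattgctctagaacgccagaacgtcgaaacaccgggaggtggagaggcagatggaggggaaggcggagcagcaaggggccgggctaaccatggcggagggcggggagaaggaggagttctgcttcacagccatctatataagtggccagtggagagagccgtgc
Adm promoter, chr7:110627407-110627656, plus strand: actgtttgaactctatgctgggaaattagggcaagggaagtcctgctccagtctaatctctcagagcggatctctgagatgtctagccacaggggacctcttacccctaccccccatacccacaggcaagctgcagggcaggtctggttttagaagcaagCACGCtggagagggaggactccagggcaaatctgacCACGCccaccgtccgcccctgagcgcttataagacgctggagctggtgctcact
Hk2 promoter, chr6:82774455-82774704, minus strand: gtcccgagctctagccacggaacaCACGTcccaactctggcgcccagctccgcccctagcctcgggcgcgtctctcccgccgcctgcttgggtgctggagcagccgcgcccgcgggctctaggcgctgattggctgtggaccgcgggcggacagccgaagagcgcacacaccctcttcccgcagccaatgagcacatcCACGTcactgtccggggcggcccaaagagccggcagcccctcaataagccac
The Slc16a3 window held ACGTG beginning 27 and 14 bases before the start. The Bnip3 window held 4 capitalised stretches, of which CACGTG reads as ACGTG on both strands, and the Tpi1 window held none. The early genes also held cores, at 90 and 54 bases in Adm and at 226 and 52 bases in Hk2, so that the presence of a core in this window did not separate the early from the late courses shown here. Of the 35 genes, 33 had promoter entries, with 49 windows. A core of either kind on either strand was found in 40 of the 49 windows (81.6%) and in at least 1 window of 30 of the 33 genes (90.9%), against 38.6% of all 32851 windows in the table. ACGTG alone was found in 24 of the 49 windows (49%), against 16.6% of all windows. The windows of the 35 genes were also richer in G and C, with a median of 60.4% against 52.4%. The genes with entries and no core in this window were Gpi1, Tpi1 and Eno2.

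Each LPS time was compared with T0 within a genotype, which asks how the 35 genes responded to LPS. Calls are edgeR quasi-likelihood tests with Benjamini-Hochberg adjusted p under 0.05 over all genes tested. In Cop1-floxed cells 15 of the 35 rose and 2 fell at T2.5, where 29% of all tested genes rose and 28% fell. The T4 libraries had 14 higher and 7 lower (all genes: 31.7% and 35.1%), those of T6 had 15 higher and 9 lower (32.6% and 37.7%), and those of T9 had 14 higher and 14 lower (32.5% and 38.4%). By T13, 20 of the 35 had risen and 9 had fallen, against 30.8% and 35% of all genes. In WT cells 14 rose and 7 fell at T2.5 (all genes: 28.8% and 30%). The T4 libraries of WT cells had 12 higher and 12 lower (31.5% and 36.4%), those of T6 had 14 higher and 12 lower (32.1% and 38.4%), and those of T9 had 13 higher and 14 lower (32.3% and 37.9%). By T13, 21 of the 35 had risen and 9 had fallen in WT cells, against 32.6% and 34.7% of all genes. The number that rose was highest at T13 in both genotypes, where the median log2 fold change of the 35 was 0.52 in Cop1-floxed cells and 0.77 in WT cells, beside medians over all genes of -0.11 and -0.08.

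The direction of many smaller changes from T0 depended on the scaling. The T0 libraries had edgeR scaling factors of 1.53 to 1.73, against 0.747 to 1.12 in the LPS libraries, and scaling to library totals alone moved the median change of all genes to between -0.64 and -1.16 on the log2 scale. With that scaling the genes called higher and lower in Cop1-floxed cells over the 5 LPS times were 9 and 19, 9 and 23, 9 and 22, 8 and 24, and 16 and 12. In WT cells they were 7 and 19, 9 and 24, 8 and 22, 6 and 23, and 12 and 14. The shares of all genes called higher and lower with that scaling are not given here. These counts therefore show how far the calls depend on scaling and cannot be set against all genes. At T13 the called genes whose sign turned were Hk2, Egln2 and Pdk1 in Cop1-floxed cells and Pfkp, Egln2 and Pdk1 in WT cells. At the earlier times signs turned for called values of Slc2a1, Slc16a3, Hk2, Hk3, Pfkm, Aldoc, Pgk1, Eno2, Ldha, Egln2, Pdk1, Ndrg1 and Ddit4, each in at least 1 comparison. No call turned its sign in the comparisons of T13 with T9 or T2.5.

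**Figure D1:**
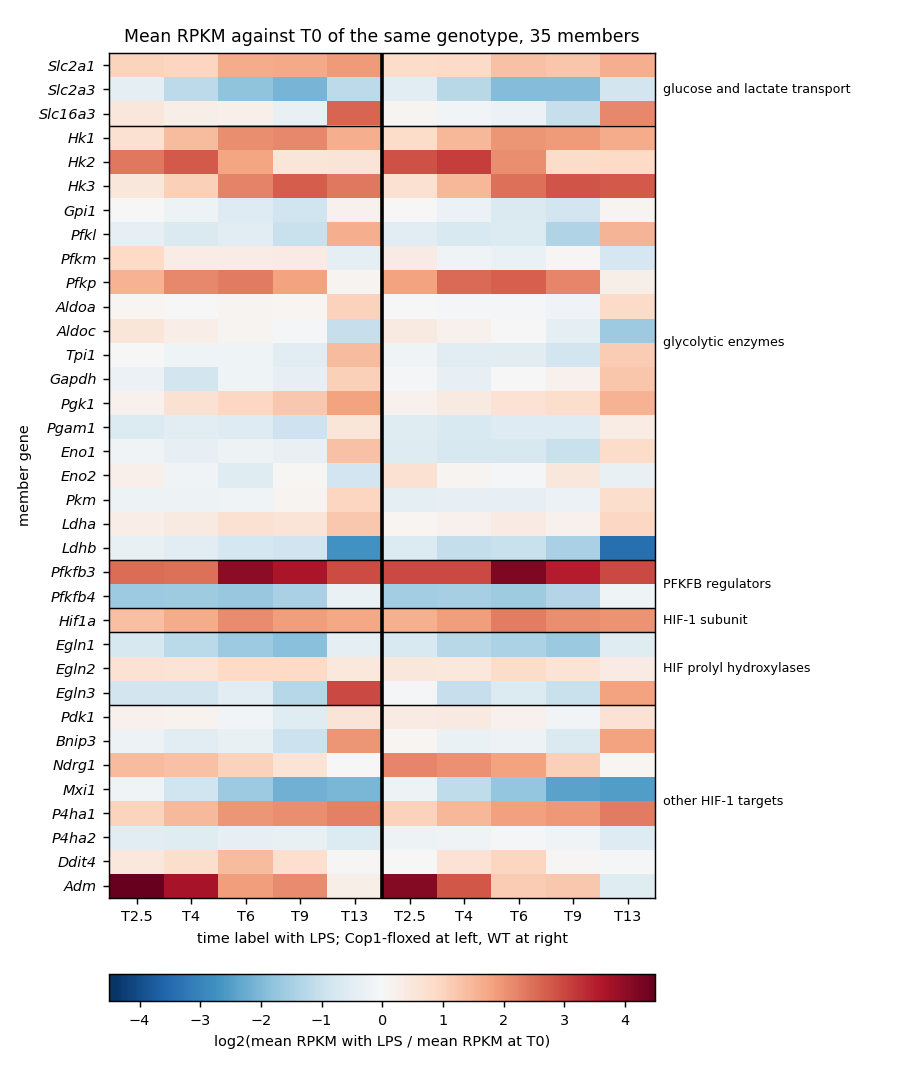
Mean RPKM of each of the 35 genes at each LPS time over its mean at T0 in the same genotype, on a log2 colour scale, with Cop1-floxed cells at left and WT cells at right of the thick line (3 libraries per group). Genes run down by role; Hk2 and Pfkfb3 are red from T2.5 on and Adm from T2.5 to T9, whereas Slc16a3, Pfkl, Tpi1, Egln3 and Bnip3 turn red at T13 in both genotypes.

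Hif1a (gene ID 15251) encodes the oxygen-regulated subunit of HIF-1. At T13 it measured 62.9, 68.1 and 78.2 RPKM in Cop1-floxed cells and 69.9, 67.4 and 81.1 RPKM in WT cells. At T0 it measured 22.7, 20.6 and 19.0 RPKM in Cop1-floxed cells and 21.9, 9.48 and 22.9 RPKM in WT cells. All T13 libraries lay above all T0 libraries, and the low T0 value was that of WT mouse 2. Over T0, T2.5, T4, T6, T9 and T13 the means were 20.8, 52.8, 65.7, 90.0, 76.3 and 69.7 RPKM in Cop1-floxed cells, and 18.1, 54.3, 66.2, 88.7, 77.9 and 72.8 RPKM in WT cells. The transcript thus stood highest at T6, with a log2 fold change at T13 over T0 of 1.68 ± 0.19 in Cop1-floxed cells and 1.99 ± 0.191 in WT cells (SE, edgeR adjusted p = 3.7e-09 and 1.24e-10).

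Among the carriers, Slc16a3 (gene ID 80879), also called MCT4, exports lactate. It measured 77.4, 101 and 70.9 RPKM at T13 in Cop1-floxed cells, against 12.4, 13.8 and 14.3 RPKM at T0. In WT cells it measured 63.8, 74.3 and 65.3 RPKM at T13, against 11.7, 19.4 and 14.2 RPKM at T0. The T13 and T0 libraries did not overlap, and the log2 fold changes were 2.56 ± 0.163 in Cop1-floxed cells and 2.14 ± 0.16 in WT cells (SE, edgeR adjusted p = 7.5e-15 and 3.73e-13). Slc2a1, the widely expressed glucose carrier GLUT1, had log2 fold changes of 1.84 and 1.61 at T13 over T0, and its group means stood above T0 from T2.5 on. Slc2a3 (gene ID 20527), the carrier GLUT3, measured 0.566, 0.597 and 0.451 RPKM at T13 in Cop1-floxed cells, against 1.06, 1.38 and 1.19 RPKM at T0. The WT libraries measured 0.614, 0.688 and 0.789 RPKM at T13, against 1.05, 1.19 and 1.51 RPKM at T0. It fell without overlap in both genotypes (log2 fold changes -1.23 and -0.87), and Slc2a1 held 99.2% of the summed RPKM of these glucose carriers at T13 in Cop1-floxed cells and 98.7% in WT cells.

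Of the 18 glycolytic enzymes, 11 rose and 4 fell at T13 against T0 in Cop1-floxed cells, and 12 rose and 4 fell in WT cells. The shares of all genes were 30.8% and 35% in Cop1-floxed cells, and 32.6% and 34.7% in WT cells. The enzymes that rose in both genotypes were Hk1, Hk2, Hk3, Pfkl, Aldoa, Tpi1, Gapdh, Pgk1, Eno1, Pkm and Ldha, with Pfkp added in WT cells. Those that fell were Pfkm, Aldoc, Eno2 and Ldhb in both genotypes, each of them the lower-level form of its enzyme in these cells. Gpi1 and Pgam1 were not called in either genotype. Among these enzymes the Gapdh call was lost without any 1 of the 3 Cop1-floxed mice in Cop1-floxed cells and without WT mouse 2 or 3 in WT cells, the Pfkm call without Cop1-floxed mouse 2 in Cop1-floxed cells, and the Pfkp call without WT mouse 2 or 3 in WT cells. Scaling to library totals also removed calls of enzymes that rose. In WT cells those of Hk2, Pfkp, Aldoa, Gapdh, Eno1, Pkm and Ldha were lost, and in Cop1-floxed cells those of Hk2 and Gapdh. The rises of Aldoa, Eno1, Pkm and Ldha over T0 in WT cells thus depended on the scaling. Hk1, Hk3, Pfkl, Tpi1 and Pgk1 kept their calls in both genotypes with that scaling. The remaining 17 genes divided into 9 that rose and 5 that fell in each genotype.

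Hexokinase takes the first step, the phosphorylation of glucose. Hk3 (gene ID 212032), the form typical of myeloid cells, measured 383, 355 and 375 RPKM at T13 in Cop1-floxed cells, against 65.8, 71.4 and 76.1 RPKM at T0. In WT cells it measured 369, 360 and 315 RPKM at T13, against 51.6, 54.6 and 47.9 RPKM at T0. The groups did not overlap, with log2 fold changes of 2.32 ± 0.111 and 2.73 ± 0.112 (SE, edgeR adjusted p = 5.02e-18 and 9.83e-20). Hk2, the form best known as an inducible HIF-1 target, followed another course: its means over T0, T2.5, T4, T6, T9 and T13 were 8.9, 45.8, 60.2, 30.6, 13 and 13.2 RPKM in Cop1-floxed cells, and 7.31, 53.8, 63.9, 30.9, 13.1 and 13.6 RPKM in WT cells. Its log2 fold change at T2.5 over T0 was 2.36 in Cop1-floxed cells and 2.84 in WT cells. Hk1, the widely expressed form, had means over the 6 times of 13.2, 21.2, 35.4, 56.4, 59.1 and 40.6 RPKM in Cop1-floxed cells, and of 12, 21.4, 34.1, 48, 45.4 and 38.6 RPKM in WT cells, and so stood highest between the early course of Hk2 and the end of the series.

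At the committing step, phosphofructokinase, the isoforms exchanged places. Pfkp, the platelet form, had means of 5.26, 15.6, 23.7, 26.6, 18.6 and 5.74 RPKM over the 6 times in Cop1-floxed cells, and of 3.82, 13.4, 22.2, 24.5, 17.4 and 4.55 RPKM in WT cells. Pfkl, the liver form, measured 35.9, 40.9 and 33.0 RPKM at T13 in Cop1-floxed cells, against 4.37, 8.53 and 4.56 RPKM at T9 and 10.6, 11.9 and 12.6 RPKM at T0. The WT libraries measured 32.9, 37.5 and 34.6 RPKM at T13, against 4.97, 4.48 and 4.57 RPKM at T9 and 11.3, 14.8 and 9.92 RPKM at T0. Every T13 library lay above every T9 and T0 library, and the high T9 value was the library of Cop1-floxed mouse 2 with fewer genes detected. Pfkm (gene ID 18642), the muscle form, measured 2.04, 1.59 and 1.86 RPKM at T13 in Cop1-floxed cells, against 2.22, 2.48 and 2.65 RPKM at T0. In WT cells it measured 1.70, 1.67 and 1.72 RPKM at T13, against 2.42, 3.33 and 2.75 RPKM at T0, so that all T13 values lay below the T0 values of the same genotype (log2 fold changes -0.49 and -0.76). As a share of the summed RPKM of the 3 isoforms, Pfkl held 60.2% ± 1.57, 21.0% ± 8.12 and 82.8% ± 0.476 at T0, T9 and T13 in Cop1-floxed cells, and 64.0% ± 4.14, 18.7% ± 0.798 and 84.8% ± 0.608 in WT cells (SD, n = 3). Pfkp was the majority form at T2.5, T4, T6 and T9 and held 13% at T13 in Cop1-floxed cells and 11.0% in WT cells. The summed level of the 3 isoforms lay between 19.4 and 44.2 RPKM in Cop1-floxed group means and between 18.7 and 41.2 RPKM in WT group means.

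**Figure D2:**
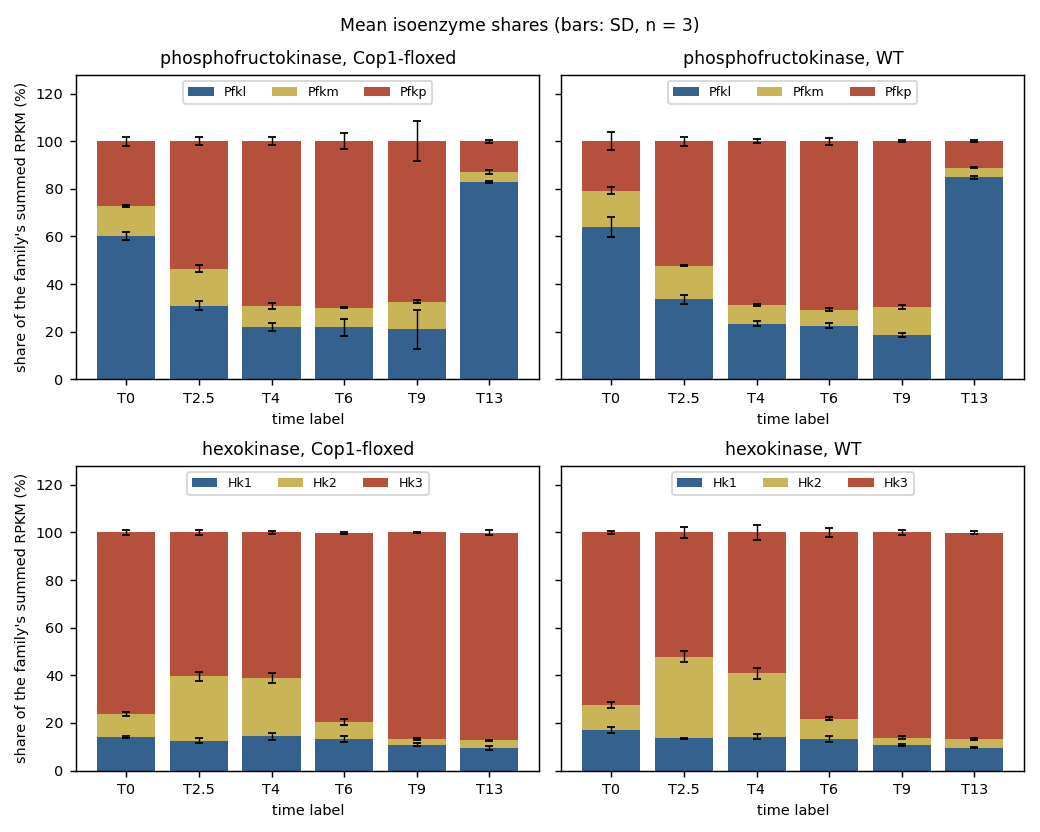
Mean share of each isoenzyme in the summed RPKM of its family at each time label, with phosphofructokinase above and hexokinase below, and Cop1-floxed cells left of WT cells; the bar at the upper edge of a segment is the SD of that isoenzyme's share over 3 libraries. Pfkp fills most of the phosphofructokinase bar from T2.5 to T9 and Pfkl fills over 80% of it at T13, whereas Hk2 is widest at T2.5 and T4 and Hk3 stays the largest segment throughout.

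The PFKFB enzymes also diverged. Pfkfb3 (gene ID 170768), the strongly kinase-biased form, measured 88.6, 103 and 119 RPKM at T13 in Cop1-floxed cells, against 13.1, 12.9 and 14.9 RPKM at T0. The WT libraries measured 96.3, 83.1 and 84.2 RPKM at T13, against 13.4, 8.16 and 11.7 RPKM at T0. It rose without overlap, by 2.86 ± 0.143 and 2.96 ± 0.143 on the log2 scale (SE, edgeR adjusted p = 1.59e-17 and 6.53e-18), and its highest means were those of T6, at 224 RPKM in Cop1-floxed cells and 202 RPKM in WT cells. Pfkfb4 moved the opposite way, with means of 7.14, 2.3, 2.38, 2.19, 2.57 and 5.85 RPKM over the 6 times in Cop1-floxed cells and 7.03, 2.39, 2.47, 2.32, 2.79 and 6.09 RPKM in WT cells. Its log2 fold change at T2.5 was -1.64 in Cop1-floxed cells and -1.59 in WT cells, and Pfkfb3 made up 99% and 98.9% of the pair's summed RPKM at T6, against 65.6% and 60.6% at T0.

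Further down the pathway Aldoa, Pkm and Ldha each had their highest mean at T13. Aldoa, the main aldolase, had means of 263, 283, 264, 285, 280 and 540 RPKM over the 6 times in Cop1-floxed cells, and of 272, 272, 261, 254, 242 and 498 RPKM in WT cells. Pkm, pyruvate kinase, had means of 156, 133, 132, 140, 168 and 305 RPKM in Cop1-floxed cells, and of 163, 124, 125, 127, 136 and 285 RPKM in WT cells. Ldha, the lactate dehydrogenase subunit that dominates in these cells, had means of 79.5, 97.9, 105, 126, 119 and 186 RPKM in Cop1-floxed cells and of 84.7, 90.2, 95.7, 109, 97.4 and 161 RPKM in WT cells.

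The minor isoforms of lactate dehydrogenase, aldolase and enolase moved the other way. Ldhb (gene ID 16832) measured 0.431, 0.574 and 0.726 RPKM at T13 in Cop1-floxed cells, against 3.83, 4.21 and 3.51 RPKM at T0. In WT cells it measured 0.537, 0.272 and 0.360 RPKM at T13, against 3.84, 5.20 and 3.23 RPKM at T0. These were the largest falls among the 35 genes, at -2.80 ± 0.229 and -3.39 ± 0.239 on the log2 scale (SE, edgeR adjusted p = 3.21e-12 and 8.48e-14), with no overlap. Aldoc (gene ID 11676) measured 1.94, 2.94 and 1.79 RPKM at T13 in Cop1-floxed cells, against 4.42, 4.67 and 4.42 RPKM at T0, and 1.72, 1.70 and 1.29 RPKM at T13 in WT cells, against 4.09, 6.09 and 4.33 RPKM at T0. The T13 values lay below the T0 values in both genotypes (log2 fold changes -1.08 and -1.65). Eno2 (gene ID 13807), the enolase known from neurons, measured 2.20, 1.54 and 2.16 RPKM at T13 in Cop1-floxed cells, against 3.33, 3.95 and 3.38 RPKM at T0, and 2.30, 2.45 and 2.77 RPKM at T13 in WT cells, against 3.56, 3.38 and 2.52 RPKM at T0. Its T13 and T0 values overlapped in WT cells, where the log2 fold change was -0.36 (adjusted p = 0.0196), and not in Cop1-floxed cells, where it was -0.92 (adjusted p = 5.55e-07). The Eno2 call in WT cells was lost without WT mouse 1, without WT mouse 2 and without the T0 library of WT mouse 2 (log2 fold change -0.19 and adjusted p = 0.326 without mouse 1).

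Some enzymes have near-identical processed copies in the mouse genome, and their values are uncertain where reads could be split or dropped. Gapdh had 811 counts over all 36 libraries, beside 558 counts on its 11 listed pseudogenes, and Pgam1 had 1394 counts. Eno1 had 61874 counts beside 2389 on its retrotransposed copy, Ldha 270450 beside 495, and Aldoa 760693 beside 6877 on its pair of retrogenes. Pgk1 had 14158 counts and 2.72 to 16.4 RPKM. The levels and calls of Gapdh, Pgk1 and Pgam1 are therefore not taken as those of the transcripts themselves.

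The prolyl hydroxylases differed from one another. Egln3 (gene ID 112407), or PHD3, a known HIF-1 target, measured 0.909, 1.80 and 1.14 RPKM at T13 in Cop1-floxed cells, against 0.196, 0.123 and 0.169 RPKM at T0. The WT libraries measured 0.693, 1.06 and 0.901 RPKM at T13, against 0.319, 0.261 and 0.175 RPKM at T0. It rose without overlap, by 2.90 ± 0.422 and 1.79 ± 0.406 on the log2 scale (SE, edgeR adjusted p = 4.69e-07 and 0.000285), on 1049 counts in all libraries together. Egln1, or PHD2, the main oxygen-dependent regulator of Hif1a in most cells, had means of 8.85, 5.37, 3.78, 2.85, 2.41 and 6.71 RPKM over the 6 times in Cop1-floxed cells and of 7.86, 4.86, 3.34, 2.92, 2.46 and 5.34 RPKM in WT cells. Egln2, or PHD1, carried 93.3% ± 1.43 of the summed RPKM of the 3 at T9 in Cop1-floxed cells and 92.2% ± 0.15 in WT cells, against 67.5% ± 1.09 and 70.5% ± 5.24 at T0 (SD, n = 3). At T9, where Egln1 had its lowest means, Hif1a was at 76.3 RPKM in Cop1-floxed cells and 77.9 RPKM in WT cells.

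Of the 8 other HIF-1 targets, 3 rose and 2 fell at T13 against T0 in each genotype. Of all genes, 30.8% rose and 35% fell in Cop1-floxed cells, and 32.6% and 34.7% in WT cells, so these counts lay near the shares of all genes. The median log2 fold change of the 8 was 0.08 in Cop1-floxed cells and -0.01 in WT cells. P4ha1 (gene ID 18451), a catalytic subunit of collagen prolyl 4-hydroxylase, measured 52.9, 53.5 and 55.5 RPKM at T13 in Cop1-floxed cells, against 11.2, 11.8 and 10.9 RPKM at T0. In WT cells it measured 56.6, 60.6 and 56.2 RPKM at T13, against 11.3, 11.6 and 11.3 RPKM at T0. Replicates were close and the groups far apart, at 2.19 ± 0.0727 and 2.32 ± 0.073 on the log2 scale (SE, edgeR adjusted p = 5.05e-22 and 1.13e-22). Bnip3, a receptor for the removal of mitochondria, and Pdk1, which inhibits pyruvate dehydrogenase, were the others that rose. Mxi1 (gene ID 17859), an antagonist of Myc, measured 1.36, 2.37 and 1.54 RPKM at T13 in Cop1-floxed cells, against 7.27, 7.25 and 7.65 RPKM at T0, and 1.01, 1.71 and 1.51 RPKM at T13 in WT cells, against 7.90, 7.40 and 8.92 RPKM at T0. It fell without overlap (log2 fold changes -2.13 and -2.55). P4ha2 was the other gene that fell. The P4ha2 call was lost in Cop1-floxed cells without Cop1-floxed mouse 1 or 3. In WT cells it was lost without WT mouse 2 or 3 and without the T0 library of WT mouse 2. Ndrg1, Ddit4 and Adm were not called at T13. Adm, which encodes the vasodilator peptide adrenomedullin, had the largest early rise of the 35, at 10.6, 6.90 and 12.5 RPKM at T2.5 in Cop1-floxed cells, against 0.472, 0.225 and 0.451 RPKM at T0. The WT libraries measured 12.4, 9.39 and 10.5 RPKM at T2.5, against 0.404, 0.937 and 0.504 RPKM at T0. The log2 fold changes at T2.5 were 4.69 ± 0.303 and 4.14 ± 0.29 (SE, edgeR adjusted p = 1.37e-14 and 9.05e-14), and at T13 the means were 0.455 RPKM in Cop1-floxed cells and 0.419 RPKM in WT cells. Ndrg1, a stress-responsive gene of the N-Myc downstream-regulated family, was also early, with log2 fold changes at T2.5 of 1.41 and 2.16.

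**Figure D3:**
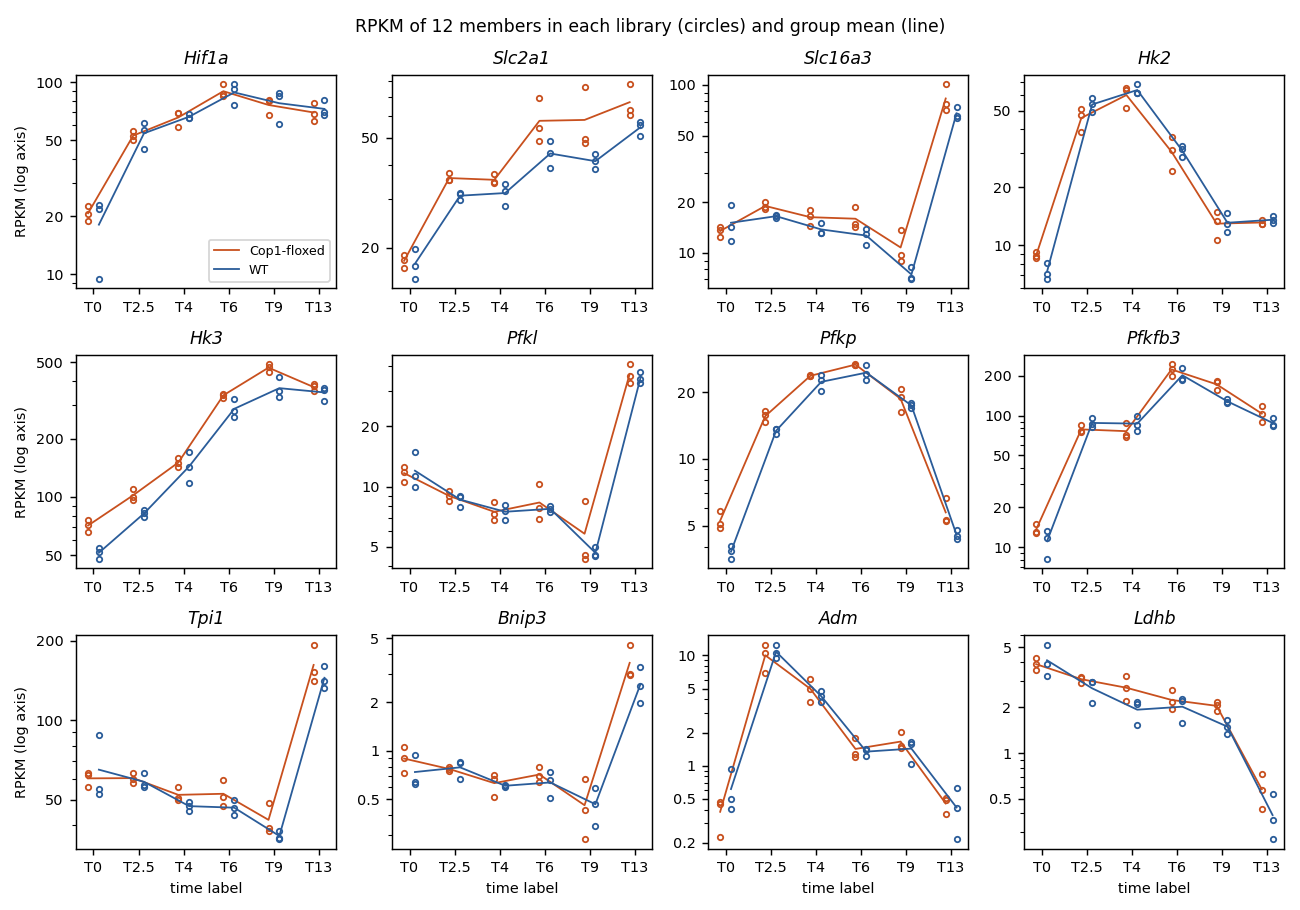
RPKM of 12 of the 35 genes in each of the 36 libraries (circles) with group means (lines) on log axes, against time label with equal spacing, for Cop1-floxed cells (orange) and WT cells (blue). Hk2 and Adm peak at T2.5 or T4, Pfkp and Pfkfb3 at T6, and Slc16a3, Pfkl, Tpi1 and Bnip3 stand highest at T13; the lone low Hif1a point and high Tpi1 point at T0 are WT mouse 2.

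The change while LPS was present was measured without the T0 libraries. From T2.5 to T13, 19 of the 35 genes rose and 10 fell in Cop1-floxed cells (all genes: 30.2% and 33.4%), and 19 rose and 9 fell in WT cells (32.5% and 31.8%). Among the glycolytic enzymes 11 rose and 6 fell in each genotype, and among the 8 other HIF-1 targets 3 rose and 3 fell in each. The difference between the genotypes in this change was called for 0 of the 35 genes and for 0.0446% of all genes (edgeR, 2 of the 35 at an unadjusted p under 0.05, 0 with DESeq2).

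Much of that change lay in the last interval. The T13 minus T9 comparison was added after the time courses had been seen. In Cop1-floxed cells 18 of the 35 rose and 11 fell (all genes: 27.3% and 28.3%), and in WT cells 19 rose and 8 fell (28.4% and 27.5%). Among the glycolytic enzymes 10 rose in each genotype, namely Gpi1, Pfkl, Aldoa, Tpi1, Gapdh, Pgk1, Pgam1, Eno1, Pkm and Ldha. The Gapdh and Pgam1 calls rest on few counts: that of Gapdh was lost in Cop1-floxed cells without Cop1-floxed mouse 1 or 3 and in WT cells without Cop1-floxed mouse 3 or WT mouse 2 or 3, and that of Pgam1 in WT cells without WT mouse 1. Pfkm, Pfkp, Aldoc, Eno2 and Ldhb fell in both genotypes, with Hk1 and Hk3 added in Cop1-floxed cells. That call of Hk3 was lost without Cop1-floxed mouse 1, 2 or 3 and with library totals. Hk1 was also called in WT cells with DESeq2, DESeq2 size factors, limma and the mouse as a block, and without the T0 library of WT mouse 2. Its T13 level was 0.625 to 0.927 times its T9 level within a mouse. Of the 8 other HIF-1 targets, 3 rose and 2 fell in each genotype, with median log2 fold changes of -0.09 in Cop1-floxed cells and -0.07 in WT cells. The genes that follow are named because they had the largest changes.

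Slc16a3 measured 77.4, 101 and 70.9 RPKM at T13 in Cop1-floxed cells, against 9.76, 13.6 and 8.94 RPKM at T9, and 63.8, 74.3 and 65.3 RPKM at T13 in WT cells, against 7.04, 7.06 and 8.24 RPKM at T9. Within each of the 6 mice the T13 level was 7.41 to 10.5 times the T9 level, and the log2 fold changes were 2.95 ± 0.167 and 3.23 ± 0.169 (SE, edgeR adjusted p = 2.84e-15 and 4.78e-16). Tpi1, which interconverts the 3-carbon sugars, measured 152, 193 and 140 RPKM at T13 in Cop1-floxed cells, against 38.0, 48.7 and 39.3 RPKM at T9, and 133, 160 and 141 RPKM at T13 in WT cells, against 35.9, 38.1 and 35.6 RPKM at T9. The ratio within a mouse was 3.57 to 4.21. Pfkl rose by 2.66 and 2.95 on the log2 scale, with ratios within a mouse of 4.79 to 8.38, and Eno1 by 1.68 and 1.87, with ratios of 2.76 to 3.77. Bnip3 measured 2.97, 4.58 and 3.02 RPKM at T13 in Cop1-floxed cells, against 0.284, 0.427 and 0.668 RPKM at T9, and 1.97, 2.51 and 3.31 RPKM at T13 in WT cells, against 0.343, 0.467 and 0.590 RPKM at T9. Egln3 had the largest log2 fold changes in Cop1-floxed cells, 4.21 ± 0.515, against 2.85 ± 0.463 in WT cells, where Slc16a3 and Pfkl changed more; the Cop1-floxed library of mouse 2 at T9 held 0 Egln3 counts, and without that library the difference between the genotypes in this change was 0.86 in place of 1.35 (adjusted p = 0.671 with it).

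Egln1 rose by 1.48 and 1.17 and Pfkfb4 by 1.19 and 1.17 on the log2 scale, and both had stood below their T0 means since T2.5. Adm fell by 1.86 and 1.74 on the log2 scale, Ldhb by 1.82 and 1.87, and Pfkp by 1.70 and 1.89, with a T13 level of Pfkp of 0.253 to 0.408 times the T9 level within a mouse. Hif1a itself was not called, at -0.13 ± 0.184 and -0.05 ± 0.184 (SE, edgeR adjusted p = 0.576 and 0.845), and its T13 level was 0.793 to 1.15 times its T9 level within a mouse. With library totals the Hif1a values were 0.20 and 0.13. The difference between the genotypes in the change from T9 to T13 was called for 0 of the 35 genes and 0.0319% of all genes (edgeR, 3 of the 35 at an unadjusted p under 0.05, 0 with DESeq2). The summed macrophage markers were also lower at T13 than at T9, at 13900 to 16100 against 20100 to 23000 RPKM in Cop1-floxed cells and at 13600 to 15300 against 17000 to 18100 RPKM in WT cells. Lyz2 was the largest part of these sums, at 6873 to 8520 against 12360 to 14150 RPKM in Cop1-floxed cells. In WT cells it measured 6703 to 7591 against 9571 to 10560 RPKM. Of the 11 macrophage markers, 3 rose and 8 fell in Cop1-floxed cells and 3 rose and 4 fell in WT cells. Of 13 stromal and endothelial markers tested, 1 rose and 8 fell in Cop1-floxed cells and 1 rose and 7 fell in WT cells. The dendritic cell markers summed to 8.22 to 11.9 RPKM at T13 against 27.5 to 28.9 RPKM at T9 in Cop1-floxed cells, and to 14.1 to 17.1 against 39.7 to 46 RPKM in WT cells. The erythroid and platelet markers summed to 69 to 91 RPKM at T13 against 137 to 180 RPKM at T9 in Cop1-floxed cells, and to 53.9 to 75.8 against 168 to 186 RPKM in WT cells. Their part in the result was not tested. All libraries of one time could share a step in preparation that the labels do not record, and time and such a step cannot be told apart.

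**Figure D4:**
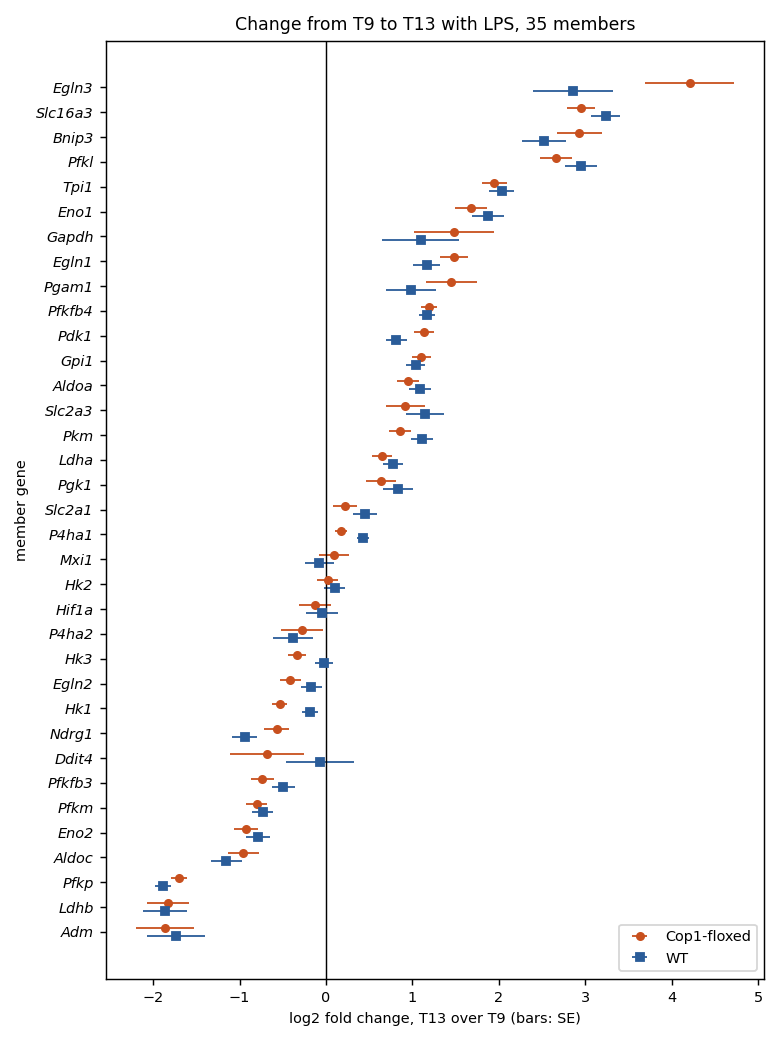
Log2 fold change at T13 over T9 with its SE for the 35 genes, in Cop1-floxed cells (orange circles) and WT cells (blue squares), ordered by the Cop1-floxed value. Egln3, Slc16a3, Bnip3, Pfkl and Tpi1 lead on the right in both genotypes, Pfkp, Ldhb and Adm stand at the left, and Hif1a, at -0.13 and -0.05, was not called.

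Between the genotypes, Ndrg1 was called at 3 of the 6 times, more often than any other of the 35 genes, and no comparison at a single time called more than 6. At T0, 3 were higher and 1 was lower in Cop1-floxed cells, where 9.57% of all genes were called. None was called at T2.5 (edgeR, all genes 3.9%; 7 of the 35 at an unadjusted p under 0.05, 0 with DESeq2) or at T4 (edgeR, all genes 4.86%; 7 of the 35 at an unadjusted p under 0.05, 1 with DESeq2). These shares of all genes are at an adjusted p under 0.05. No share at an unadjusted p was counted, here or for the other comparisons, so the unadjusted numbers cannot be set against all genes. The T6 libraries had 1 of the 35 higher (all genes 7.8%), those of T9 had 6 higher (10.4%), and those of T13 had 1 higher (3.1%). With library totals as the scaling, 0 were higher and 2 lower at T6, and 1 was higher and 2 lower at T9. Summing the 5 LPS libraries of each mouse, 2 were higher and 1 was lower (9.24% of 16539 genes tested). The test of whether the LPS response itself differed, over 5 interaction terms, called 0 of the 35 and 0.599% of all genes (edgeR, 3 of the 35 at an unadjusted p under 0.05, 1 with DESeq2, and 1, Pfkfb3, with the mouse as a block); the smallest adjusted p was 0.101, for Ndrg1. Hif1a differed by -0.05 ± 0.0809 on the log2 scale over the summed libraries (SE, edgeR adjusted p = 0.769).

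Ndrg1 (gene ID 17988) was the gene called most often. At T0 it measured 9.77, 12.6 and 10.2 RPKM in Cop1-floxed cells, against 5.95, 5.05 and 4.41 RPKM in WT cells. At T13 it measured 9.47, 13.6 and 10.2 RPKM in Cop1-floxed cells, against 5.46, 6.16 and 4.91 RPKM in WT cells. The genotypes did not overlap at either time, with log2 fold changes of 1.09 ± 0.146 at T0, 0.61 ± 0.144 at T9 and 0.98 ± 0.147 at T13 (SE, edgeR adjusted p = 9.4e-06, 0.0058 and 0.000234). At T2.5 it measured 28.9, 26.0 and 32.0 RPKM in Cop1-floxed cells, against 22.6, 21.7 and 26.0 RPKM in WT cells, so the ranges overlapped slightly and the difference was not called (adjusted p = 0.22). Over the summed LPS libraries the log2 fold change was 0.45 ± 0.0662 (adjusted p = 0.0102). The T9 call was lost without Cop1-floxed mouse 1 (adjusted p = 0.0567) or mouse 3 (adjusted p = 0.0754). The T13 call was kept under all alternatives run, with log2 fold changes of 0.81 to 1.10, whereas without Cop1-floxed mouse 1 the summed call was lost (adjusted p = 0.0521).

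Pfkm was higher in Cop1-floxed cells over the summed LPS libraries, by 0.29 ± 0.0609 on the log2 scale (SE, edgeR adjusted p = 0.0251), and at T6, where it measured 2.92, 3.23 and 3.19 RPKM against 2.34, 2.44 and 2.13 RPKM in WT cells (log2 fold change 0.47 ± 0.12, adjusted p = 0.012). The T6 values did not overlap, and that call was lost without Cop1-floxed mouse 2 or 3 or WT mouse 3 (adjusted p = 0.0791, 0.118 and 0.129). It was also lost with library totals as the scaling and when only the T6 libraries were fitted. P4ha2 (gene ID 18452), a second catalytic subunit of collagen prolyl 4-hydroxylase, was lower over the summed libraries (log2 fold change -0.68 ± 0.159, adjusted p = 0.0363). At T4 it measured 2.85, 2.11 and 2.82 RPKM in Cop1-floxed cells, against 3.54, 5.26 and 4.72 RPKM in WT cells. The summed calls rested on single mice: leaving out Cop1-floxed mouse 1, 2 or 3 left 0, 2 and 1 genes called, and leaving out WT mouse 1, 2 or 3 left 5, 1 and 1. Ddit4, or REDD1, an inhibitor of mTORC1, was called lower at T0, where it measured 1.29, 1.11 and 1.22 RPKM in Cop1-floxed cells, against 1.53, 4.21 and 3.02 RPKM in WT cells (log2 fold change -1.26 ± 0.395, adjusted p = 0.0393). WT mouse 1 lay close to the Cop1-floxed mice in both genes and the other WT mice lay above.

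The stromal and endothelial markers followed the same order among the WT mice. At T0 their sum was 44.5, 33.3 and 52.4 RPKM in Cop1-floxed mice 1, 2 and 3, against 101, 248 and 166 RPKM in WT mice 1, 2 and 3. Of the 13 tested, 9, 10, 10, 8, 8 and 7 were lower in Cop1-floxed cells over the 6 times and none was higher. The part of these markers in the P4ha2 and Ddit4 differences was not tested.

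At T0 the other called genes were Hk3, at 65.8, 71.4 and 76.1 RPKM in Cop1-floxed cells against 51.6, 54.6 and 47.9 RPKM in WT cells, and Pfkp, at 4.89, 5.82 and 5.08 RPKM against 4.06, 3.55 and 3.84 RPKM. Both had log2 fold changes of 0.48 (adjusted p = 0.00285 and 0.000849) and no overlap. None of the 4 T0 calls was made when only the T0 libraries were fitted, and Ddit4 lost its call without Cop1-floxed mouse 1, 2 or 3 or WT mouse 2 or 3, which left 3, 3, 2, 3 and 3 genes called, while 6 were called without WT mouse 1.

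The 6 genes higher at T9 were Slc2a1, Slc16a3, Hk1, Hk3, Pfkfb3 and Ndrg1, by 0.51, 0.55, 0.40, 0.37, 0.45 and 0.61 on the log2 scale. Slc2a1 measured 49.6, 76.3 and 48.0 RPKM in Cop1-floxed cells, against 41.3, 38.5 and 43.6 RPKM in WT cells, and its highest value came from the library with fewer genes detected. Without that library 2 genes, Pfkfb3 and Ndrg1, kept their calls at T9. Leaving out Cop1-floxed mouse 1, 2 or 3 left 1, 1 and 3 genes called, and leaving out WT mouse 1, 2 or 3 left 6, 4 and 1. The 6 called without WT mouse 1 held 4 of the genes named above. Slc16a3 and Pfkfb3 were lost, and P4ha2 and Ddit4 were newly called. Leaving out the T0 library of WT mouse 2, which shares the estimate of spread, gave 10. The macrophage markers were also higher at T9, with sums of 23000, 20100 and 20700 RPKM in Cop1-floxed cells against 17800, 17000 and 18100 RPKM in WT cells and 4 of the 11 called higher. This was not particular to T9. The Cop1-floxed sums also lay above the WT sums at T0, T2.5, T4 and T6, with 3, 1, 1 and 3 of the 11 called higher. Lyz2 was the largest part of these sums, so they mainly describe this gene. At T9 it measured 12360 to 14150 RPKM in Cop1-floxed cells, against 9571 to 10560 RPKM in WT cells. At T0 it measured 15270 to 16250 against 10830 to 11900 RPKM. The part of these markers in the T9 differences was not tested.

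**Figure D5:**
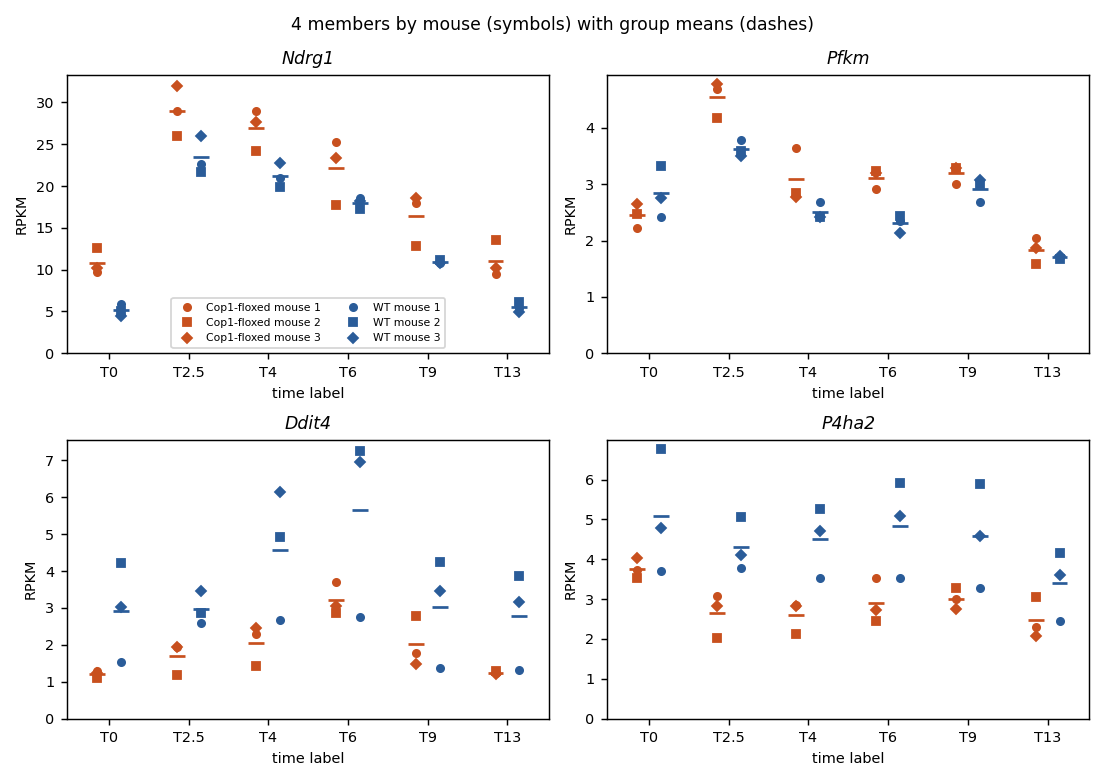
RPKM of Ndrg1, Pfkm, Ddit4 and P4ha2 at each time label, with Cop1-floxed mice (orange) left of WT mice (blue), a symbol per mouse and a dash for each group mean. Ndrg1 stands higher in Cop1-floxed mice at T0 and T13, at 9.47 to 13.6 RPKM against 4.41 to 6.16 RPKM, and in Ddit4 and P4ha2 the circles of WT mouse 1 sit near the Cop1-floxed symbols.

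Genes around the pathway were counted from lists of related functions, at T13 against T0. Of 12 further glycolysis genes tested, 3 rose and 7 fell in Cop1-floxed cells and 1 rose and 7 fell in WT cells. Slc2a6, a hexose carrier of the GLUT family, rose by 4.63 and 4.55 on the log2 scale, to 245, 200 and 240 RPKM in Cop1-floxed cells, against 7.39, 9.55 and 9.62 RPKM at T0, and to 242, 208 and 186 RPKM in WT cells, against 5.52, 12.5 and 8.61 RPKM at T0. Its level at T13 was thus above that of Slc2a1 in both genotypes. The highest means of Slc2a6 were those of T6, at 445 RPKM in Cop1-floxed cells and 439 RPKM in WT cells. From T9 to T13 its log2 fold changes were -0.885 and -0.869 (edgeR adjusted p = 3.02e-05 and 3.91e-05). At T13 against T0, Slc2a8 had log2 fold changes of -1.48 and -1.85 and Gapdhs of -0.99 and -1.27. Of 27 further HIF pathway and target genes tested, 9 rose and 9 fell in Cop1-floxed cells and 10 rose and 10 fell in WT cells, so higher and lower calls were equal in number in each genotype. Epas1, which encodes HIF-2α, had log2 fold changes of -3.76 and -2.96, and measured 0.217 to 0.244 RPKM at T13 in Cop1-floxed cells, against 2.46 to 3.59 RPKM at T0, and 0.361 to 0.415 RPKM at T13 in WT cells, against 2.16 to 3.77 RPKM at T0. Angptl4 had log2 fold changes of -2.94 and -3.18. Hif3a had 12 to 22 counts per library at T13 in Cop1-floxed cells and 16 to 36 in WT cells, against 0 to 1 at T0 in both genotypes. The counts differed for T13 against T9, where 13 of these 27 genes rose and 7 fell in each genotype. Of all genes, 27.3% rose and 28.3% fell in Cop1-floxed cells, and 28.4% and 27.5% in WT cells. The 12 further glycolysis genes had 4 higher and 4 lower in Cop1-floxed cells, and 5 and 5 in WT cells.

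Of 13 genes of the pyruvate dehydrogenase complex, its regulators and the pyruvate carrier, 1 rose and 6 fell in each genotype, with Pdk4 at -1.77 and -3.03, Pdk2 at -1.76 and -2.06 and the phosphatase Pdp1 at -1.56 and -1.68. Of 9 pentose phosphate pathway genes, 2 rose and 5 fell in each genotype, with Rpe at 1.51 and 1.93, Taldo1 at -1.67 and -1.77 and Shpk, the sedoheptulose kinase, at -1.58 and -1.53. Of 21 TCA cycle genes, 3 rose and 12 fell in Cop1-floxed cells and 5 rose and 13 fell in WT cells. Idh1, the cytosolic isocitrate dehydrogenase, measured 20.1, 23.9 and 18.5 RPKM at T13 in Cop1-floxed cells, against 133, 137 and 121 RPKM at T0, and 16.2, 17.0 and 17.4 RPKM at T13 in WT cells, against 89.2, 71.5 and 87.8 RPKM at T0 (log2 fold changes -2.71 and -2.32). Idh2 had log2 fold changes of -2.12 and -2.16 and Suclg2 of -1.95 and -1.71. Of all genes tested, 30.8% rose and 35% fell at T13 in Cop1-floxed cells and 32.6% rose and 34.7% fell in WT cells.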

How the data were processed

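PolyA RNA of mouse BMDMs was sequenced in 36 libraries. The authors deposited whole-number counts per gene, which were the input of all tests, and RPKM values, which were used for levels; both are named in the file headers. The RPKM values equal counts per kilobase of the gene model size given in the deposited gene table (other columns of that table name the genes) scaled to library sizes adjusted by size factors. Alignment with GSNAP to GRCm38 is named in the submitters' processing notes; versions, strand setting and the counting of reads with several matches are not given in the labels or headers, which leaves genes with near copies uncertain.

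Genes were filtered with filterByExpr over the 12 groups, scaled by TMM and fitted with edgeR 4.0.16 (quasi-likelihood, one mean per group, 24 residual degrees of freedom) in R 4.3.3; p-values were adjusted over all genes tested, with a threshold of 0.05. A SE is the log2 fold change divided by the square root of its F. The summed LPS libraries were fitted over 6 mice. Alternatives were size factors and tests of DESeq2 1.42.0, library totals, no filter, limma 3.58.1 on log2(RPKM + 1) of genes with a mean of at least 0.1 RPKM, each mouse or library left out, mouse and replicate-number blocks, and libraries of one time alone. The tests were checked on simulated data.

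The same individual was sampled at all times of its genotype, per the labels, so mice pair the times: deviations from group means had a median correlation of 0.139 within a mouse (90 pairs) and -0.0681 between mice of a genotype. Replicate pairs differed by at least 9.13 times the sampling noise (chi-square per degree of freedom), so none was counted as a duplicate. The 3 mice of a genotype are the replicates.

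The 35 genes and the lists were chosen with earlier results of these data known. Values per library were printed for Hif1a, for genes called in the interaction test, at 2 or more LPS times between genotypes or in the summed libraries, and for the 5 largest rises and 5 largest falls at T13 in either genotype; of each related list, the 3 genes with the largest change at T13 in WT among those called. Pfkl, Tpi1, Bnip3, Eno1, Hk2, Pfkp, Adm, Ddit4 and the others were named after their values were seen, as were the T13 minus T9 comparison and the interaction terms per time.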

Additional observations from a re-analysis of the deposited data

Results flagged for a closer look

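For 2 genes the change from T0 moved one way in every Cop1-floxed mouse and the opposite way in every WT mouse. Pfkm at T6 against T0 changed by 0.269 to 0.393 on the log2 scale in the Cop1-floxed mice, against -0.444 to -0.0499 in the WT mice; the difference of the changes was 0.669 (edgeR adjusted p = 0.0893; 0.0498 with the mouse as a block and 0.0217 with DESeq2, both past the threshold). Adm at T13 against T0 changed by 0.0638 to 0.666 in the Cop1-floxed mice, against -0.862 to -0.266 in the WT mice; the difference of the changes was 0.729 (edgeR adjusted p = 0.685). The Adm difference did not pass the threshold, and the T0 groups enter both. How many of all tested genes meet the same rule was not counted, so these 2 cannot be set against a share of all genes.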

How the results depend on the processing

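Numbers of the 35 genes called between Cop1-floxed and WT cells moved by over 1.5 times as follows. At T0 (4 called), 0 were called with only the libraries of that time. At T2.5 (0), 1 was called with no filter, 1 with the replicate block by number and 3 with only that time. At T4 (0), 1 was called with DESeq2 size factors, 1 with library totals, 2 with no filter, 1 with the replicate block, 2 with only that time and 1 with DESeq2. At T6 (1), 2 were called with library totals (Eno2 and P4ha2, with Pfkm lost), 2 with no filter, 2 with the replicate block and 2 with DESeq2. With only the T6 libraries the 1 gene called was P4ha2 in place of Pfkm. At T9 (6), 3 were called with library totals and 2 with only that time. At T13 (1), 2 were called with DESeq2 size factors and 2 with DESeq2. The interaction test (0) called 1 with no filter, 1 with the mouse as a replicate block and 1 with DESeq2. The summed libraries (3) gave 1 with the replicate block, 17 with a mean contrast over all libraries, which treats libraries of a mouse as independent, and 5 with DESeq2. Library totals gave 28 at T2.5 and 32 at T4 against T0 in Cop1-floxed cells. With 1 mouse or library left out the counts ran from 2 to 6 at T0, 0 to 3 at T2.5, 0 to 2 at T4, 0 to 4 at T6, 1 to 10 at T9, 1 to 3 at T13, 0 to 1 in the interaction test and 0 to 5 in the sums.

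Hif1a at T13 against T9, not called in either genotype, turned to 0.20 (Cop1-floxed) and 0.13 (WT) with library totals. For Hif1a: WT T13 minus T9, leaving out 1 mouse or library gave -0.153 to 0.0829, the highest without WT mouse 2. The cause was not tested. Replicate numbers across genotypes carry no shared mouse: same-numbered libraries had a median correlation of -0.0782, and the block by number stands as an alternative here. The mouse block also called 1 gene, against 0, in the genotype difference of the change from T0 to T6 (Pfkm) and to T9 (Slc16a3), and moved no other count by over 1.5 times. Over single genes, 1830 values kept their direction and side of the threshold, 85 lost it, 6 gained it and 3 turned. Depth limits Gapdh (811 counts in all libraries), Egln3 (1049) and Pgam1 (1394) most.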
